A study of Mus musculus with 8 samples.

Results

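The genes described here are those of the Wnt pathway, from the secreted ligands and their receptors to the cytoplasmic and nuclear proteins that carry or restrain the signal. They were chosen by name among the protein-coding rows of the bulk RNA-Seq table of mouse cardiac endothelial cells (MCECs), an established cell line. The rule took Wnt, Fzd, Lrp5/6, Rspo, Lgr4-6, Sfrp, Dkk, Dvl, Axin, Apc, Gsk3, Csnk1, Ctnnb, Tcf7, Lef1, Tle1-6, Bcl9, Celsr, Vangl, Prickle, Daam, Ryk, Ror, Wls, Porcn and *Kif26b*, with the feedback genes Nkd, Notum, *Znrf3* and *Rnf43*. It matched 46 of the 8278 genes of the table, of which 7976 are protein-coding. In the GENCODE M21 annotation of the same mm10 build the rule matches 98 protein-coding genes, and the other 52, among them *Lef1*, *Tcf7*, *Lrp6*, *Gsk3b*, *Apc*, *Znrf3*, *Rnf43* and *Dkk1*, were not analysed here. The table lists only genes whose adjusted p-value in the authors' own comparison was under 0.05, so every count below describes genes that had already passed a test on these libraries.

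The study compared 4 libraries of *Hdac3* KO MCECs with 4 libraries of empty vector (EV) control MCECs. *Hdac3* KO cells were a stable line made by transduction with a lentiviral CRISPR/Cas9 vector that carried an *Hdac3* sgRNA, and EV cells received the lentivirus with no such guide. Both carried the lentiviral vector and both were grown in DMEM with fetal bovine serum. Whether the KO line was 1 clone or a pool is not given in the sources used here, and nothing says that the 4 samples of a group came from separate transductions, so the p-values measure only the spread between these samples, which may be technical. Total reads per library ranged from 15775327 to 21262575 in EV and from 19356714 to 22255684 in *Hdac3* KO MCECs. *Hdac3* itself, the targeted gene, had 1943, 2077, 2064 and 2147 normalized counts in EV replicates 1 to 4 and 1558, 1465, 1496 and 1531 in *Hdac3* KO replicates 1 to 4. It was lower in every KO library, with a log2 fold change of -0.45 (SE 0.04). Editing by Cas9 alters the DNA of a gene and does not by itself remove its transcript, so this is a check of the labels only.

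Wnt ligands are lipid-modified secreted proteins that bind Frizzled receptors. With the co-receptors Lrp5 and Lrp6, they release β-catenin from a destruction complex built on Axin and APC, in which the kinases GSK3 and CK1 mark it for degradation. β-catenin then acts with TCF/LEF proteins in the nucleus, and among the genes it turns on are inhibitors of the pathway such as *Axin2*. R-spondins strengthen the signal at the membrane by sparing Frizzled receptors from removal, while other ligands act without β-catenin, through planar cell polarity proteins, Ror or Ryk. In the developing heart the pathway takes part in valve formation and in the growth of the myocardium.

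Of the 46 genes, 33 fell and 12 rose in *Hdac3* KO MCECs at an adjusted p-value under 0.01 in edgeR's quasi-likelihood test, and *Gsk3a* did not pass. That is 71.7% lower and 26.1% higher. With library totals alone and no TMM factors, which lowers the median of all genes by 0.12, the split was 33 lower and 7 higher, and over all 8278 genes 4120 lower and 2671 higher. Of all genes in the table, with TMM factors, 96.7% passed, 49.6% lower and 47.1% higher. The paper reported far fewer downregulated and upregulated genes for this comparison, and the reason for the difference was not tested. A fall of at least 0.5 on the log2 scale was measured for 20 of the 46 genes (43.5%), against 23.4% of all listed genes. A rise of at least 0.5 was measured for 2 (4.35%), against 15.1%. A fall of at least 1 was measured for 11 (23.9%), against 8.36%. The median log2 fold change of the 46 genes was -0.42, with a range from -3.30 to 0.98, and that of all 8278 genes was 0.06. The values of the 2 groups of libraries did not overlap for 45 of the 46 genes, as they did not for 91.1% of all genes. For each of these 45 genes the exact permutation test (two-sided, 70 ways to split the 8 libraries 4 against 4) gave p = 0.0286, the smallest it allows. Any gene whose groups do not overlap gets this value, so it adds nothing to the count of such genes. In bulk libraries, fewer cells of a type and less RNA per cell cannot be told apart.

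**Figure D1:**
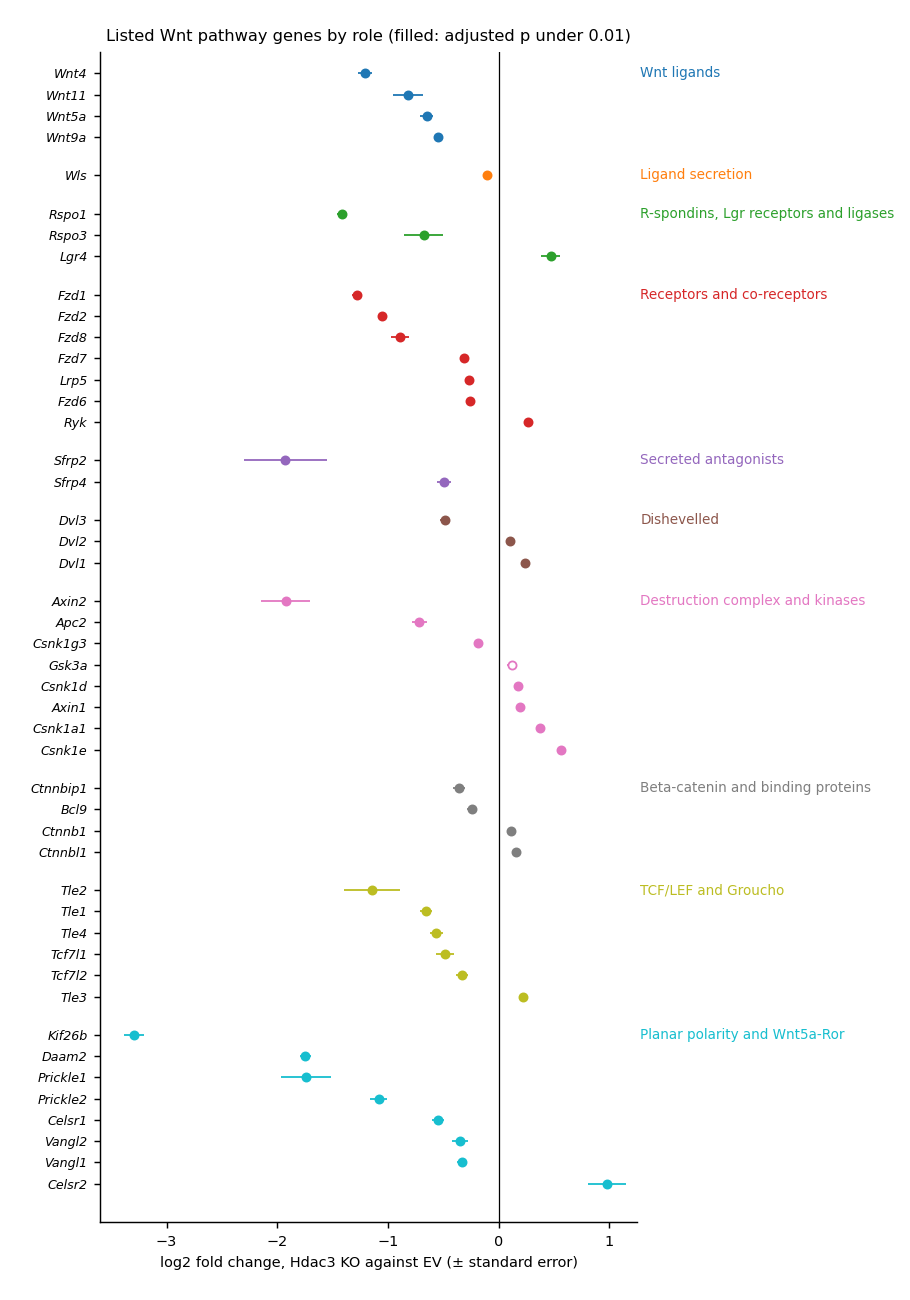
Log2 fold change of *Hdac3* KO against EV MCECs for each of the 46 listed Wnt pathway genes, grouped by role. Bars give the standard error derived from the log2 fold change and the F statistic of edgeR's fit to 4 libraries per group. Points left of 0 were lower in *Hdac3* KO MCECs; *Kif26b* lies farthest left at -3.30 and *Celsr2* farthest right at 0.98, and the open point is *Gsk3a*, the gene that did not pass.

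The labelled cell type was checked against marker genes. Of 16 endothelial markers, 6 were in the table (*Tek*, *Kdr*, *Flt1*, *Eng*, *Egfl7* and *Pecam1*), and *Cdh5*, *Tie1*, *Erg*, *Vwf* and the others were not analysed here. *Pecam1*, a surface protein of endothelial cells, had between 0 and 1 reads in each EV library and between 2 and 9 in each KO library, so this defining marker was near 0. The summed FPKM of the 6 markers was 26.2 to 28.3 in EV and 20.9 to 22.4 in KO libraries, whereas 4 epicardial and mesothelial markers (*Wt1*, *Tbx18*, *Upk3b* and *Msln*) summed to 1609 to 1653 and 1127 to 1155. FPKM is the number of reads per kilobase of gene, scaled to the library total. Mean FPKM in EV was 21.5 for *Eng*, 2.67 for *Flt1*, 2.31 for *Egfl7*, 0.779 for *Tek* and 0.391 for *Kdr*. The endocardial markers *Gata4* and *Npr3* stood at 40.2 and 0.287. *Pecam1*, the epicardial sum and the fibroblast and mural sum of 1527 to 1572 in EV thus go against the endothelial label. *Eng* and *Gata4* were expressed, but *Npr3* was low, and whether *Gata4* marks endocardium in these cells was not tested. The markers outside the table could not be read, and the cells are called MCECs here as the labels do. Of 9 fibroblast and mural markers, 8 were listed, 7 of them lower and 1 higher after *Hdac3* KO (median -1.32, beside 49.6% lower, 47.1% higher and a median of 0.06 over all listed genes), and their summed FPKM was 1527 to 1572 in EV and 1154 to 1177 in KO libraries. The endothelial list held 5 lower and 1 higher, and the epicardial list 3 lower and 1 higher. 2 of 5 endocardial markers (*Npr3* and *Gata4*) were listed, both lower. No cardiomyocyte marker of 6 was listed. *Cd68*, the 1 leukocyte marker of 4 in the table, and *Krt8* and *Krt18*, the 2 epithelial markers of 4, were higher. The part of these shifts in the results on the Wnt genes was not tested.

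The DNA before a RefSeq start is shown for 4 genes with large falls and different roles (*Kif26b*, *Axin2*, *Rspo1* and *Fzd1*) and for *Wnt11* and *Fzd7*, whose windows held a match to a TCF/LEF motif. Each window is the 250 bases before a start in RefSeq, on the same build (GRCm38.p6), written 5′ to 3′ on the strand of the gene. The windows of *Fzd1* and *Fzd7* end some way before the gene start that the deposited table gives, and those of the other 4 end directly before it. The motifs searched, on both strands, were CTTTGAT and its reverse complement ATCAAAG, and CTTTGTT and its reverse complement AACAAAG, and no position can match both. Capitals mark a match. *Kif26b* is at chr1:178528875-178529124 (plus strand), *Axin2* at chr11:108920099-108920348 (plus), *Rspo1* at chr4:124986180-124986429 (plus), *Fzd1* at chr5:4758217-4758466 (minus), *Wnt11* at chr7:98834862-98835111 (plus) and *Fzd7* at chr1:59481897-59482146 (plus).
Kif26b: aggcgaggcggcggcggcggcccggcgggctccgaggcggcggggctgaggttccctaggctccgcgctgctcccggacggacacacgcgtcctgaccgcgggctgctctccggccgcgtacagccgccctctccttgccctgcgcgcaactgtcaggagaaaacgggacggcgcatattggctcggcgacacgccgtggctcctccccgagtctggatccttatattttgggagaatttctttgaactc
Axin2: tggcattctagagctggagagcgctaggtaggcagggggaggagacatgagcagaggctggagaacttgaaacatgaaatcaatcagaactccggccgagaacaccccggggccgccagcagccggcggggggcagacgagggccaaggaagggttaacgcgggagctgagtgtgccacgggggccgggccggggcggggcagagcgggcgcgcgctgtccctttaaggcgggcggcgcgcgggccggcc
Rspo1: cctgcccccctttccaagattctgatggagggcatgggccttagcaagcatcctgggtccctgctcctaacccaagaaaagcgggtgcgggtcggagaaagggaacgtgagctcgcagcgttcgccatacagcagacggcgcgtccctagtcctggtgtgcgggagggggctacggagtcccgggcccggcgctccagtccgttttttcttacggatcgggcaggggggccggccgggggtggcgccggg
Fzd1: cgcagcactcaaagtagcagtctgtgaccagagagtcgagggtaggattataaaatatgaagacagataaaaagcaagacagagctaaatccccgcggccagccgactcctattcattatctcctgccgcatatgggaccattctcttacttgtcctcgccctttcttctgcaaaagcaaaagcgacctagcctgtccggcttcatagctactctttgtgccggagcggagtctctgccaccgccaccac
Wnt11: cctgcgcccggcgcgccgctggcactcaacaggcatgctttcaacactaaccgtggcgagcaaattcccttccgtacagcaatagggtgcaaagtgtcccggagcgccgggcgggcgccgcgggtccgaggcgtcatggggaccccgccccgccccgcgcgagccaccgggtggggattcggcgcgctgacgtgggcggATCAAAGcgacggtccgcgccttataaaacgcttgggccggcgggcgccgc
Fzd7: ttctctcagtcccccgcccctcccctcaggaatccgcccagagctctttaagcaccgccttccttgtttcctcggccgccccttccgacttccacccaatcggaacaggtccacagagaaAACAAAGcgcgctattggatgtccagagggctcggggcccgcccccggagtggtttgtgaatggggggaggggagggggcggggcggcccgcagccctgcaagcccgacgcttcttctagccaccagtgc

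Of the 46 genes, 33 had an entry in the promoter table, with 49 starts in all. A motif stood in 5 of these 49 windows (10.2%), against 8.06% of all 32851 windows of the table, and the difference was not tested. The 5 were 1 of 2 starts of *Wnt11* (ATCAAAG, first base at -51 from the start), *Fzd7* (AACAAAG, -130), 1 of 4 starts of *Prickle2* (CTTTGAT, -164), 1 of 4 starts of *Apc2* (AACAAAG, -21) and 1 of 2 starts of *Tcf7l2* (CTTTGTT, -14). All 5 genes were lower in *Hdac3* KO MCECs, beside 71.7% of the 46 genes and 49.6% of all listed genes. The windows of *Kif26b*, *Axin2*, *Rspo1* and *Fzd1*, which fell further, held no match to these letters. Related forms of the motif were not searched. The window of *Kif26b* holds ctttgaa close to the start, which differs from CTTTGAT in its last base only, so these windows cannot be called free of TCF/LEF motifs. The single motifs stood in 3.21% (CTTTGAT) and 5.03% (CTTTGTT) of all windows. The median GC content of the 49 windows was 65.2%, and that of all windows 52.4%.

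All 4 listed Wnt ligands fell after *Hdac3* KO, and the median of their log2 fold changes was -0.73. For this and each further role, the figures over all listed genes are 49.6% lower, 47.1% higher and a median of 0.06. *Wnt4* (ENSMUSG00000036856, chromosome 4, 137277489 to 137299726), a ligand known from kidney and gonad development, had 568, 522, 532 and 575 normalized counts in EV replicates 1 to 4 and 224, 262, 220.3 and 245 in *Hdac3* KO replicates 1 to 4. Every KO library lay below every EV library. Its log2 fold change was -1.21 (SE 0.07, adjusted p = 5.1e-18 in edgeR's quasi-likelihood test). *Wnt11* (ENSMUSG00000015957, chromosome 7, 98835112 to 98855195), a ligand of the non-canonical branch known from heart development, had 110.4, 101, 88.8 and 94.0 in EV and 61.0, 48.5, 61.2 and 52.5 in KO libraries, low counts whose groups stayed apart, with a log2 fold change of -0.82 (SE 0.14). *Wnt5a* (ENSMUSG00000021994, chromosome 14, 28504750 to 28527447), the ligand of the Ror pathway, had 609, 529.7, 596 and 534 in EV and 369, 335, 377 and 362 in KO libraries and a log2 fold change of -0.65 (SE 0.06). *Wnt9a* (ENSMUSG00000000126, chromosome 11, 59306928 to 59333552), which in the heart is known from the endocardial cushions, had 1775, 1757, 1745 and 1734 in EV and 1234, 1234, 1152 and 1177 in KO libraries. Its fall, -0.55 (SE 0.04), was the smallest of the 4 on the log2 scale. Per length it was the most abundant of them, at 28.1 ± 0.36 FPKM in EV and 17.7 ± 0.63 in KO MCECs (mean ± SD, n = 4), against 6.97 ± 0.34 and 2.78 ± 0.22 for *Wnt4*. *Wls*, which carries Wnt ligands to the cell surface, had 8075, 7794, 7810.5 and 7641 normalized counts in EV and 7062, 7150.2, 7491 and 7336 in KO libraries. Its log2 fold change was -0.11 (SE 0.03), and -0.23 with library totals alone.

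The summed FPKM of the 4 ligands went from 40.9 ± 0.9 to 23.8 ± 0.6 (SD, n = 4). *Wnt9a* made up 67.8% to 69.8% of that sum in EV and 73.7% to 75.0% in KO libraries. *Wnt4* made up 16.4% to 18.0% and 10.8% to 12.6%, so both shares differed between groups by more than the spread of libraries. The share of *Wnt5a* was 10.5% ± 0.6 and 10.6% ± 0.7 and that of *Wnt11* 3.71% ± 0.30 and 3.33% ± 0.42, with overlapping libraries. These sums hold only the listed ligands.

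Both listed R-spondins fell, and 1 of their receptors rose. *Rspo1* (ENSMUSG00000028871, chromosome 4, 124986430 to 125009099), a secreted protein that amplifies Wnt signals through Lgr receptors, had 2467, 2367, 2360.1 and 2466 normalized counts in EV and 936, 926, 915 and 836 in *Hdac3* KO libraries. The libraries of each group lay close together and the groups far apart. The log2 fold change was -1.42 (SE 0.04, adjusted p = 4.0e-27 in edgeR's quasi-likelihood test), and the level per length went from 70.1 ± 1.8 to 24.2 ± 1.3 FPKM. *Rspo3* (ENSMUSG00000019880, chromosome 10, 29453109 to 29535867), an R-spondin with known roles in vessels, was low, with 46.3, 49.98, 66.9 and 52.3 in EV and 32.6, 32.0, 36.7 and 33.8 in KO libraries, and its log2 fold change was -0.68 (SE 0.17). *Rspo1* accounted for 98.3% ± 0.3 of the summed FPKM of the pair in EV and 97.2% ± 0.2 in KO MCECs. *Lgr4* (ENSMUSG00000050199, chromosome 2, 109917647 to 110014257), a receptor for R-spondins, went the other way, with 161, 164, 162 and 149.9 in EV and 213, 212, 218 and 240.0 in KO libraries and a log2 fold change of 0.47 (SE 0.09). Its level per length was 1.68 ± 0.07 and 2.14 ± 0.12 FPKM.

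**Figure D2:**
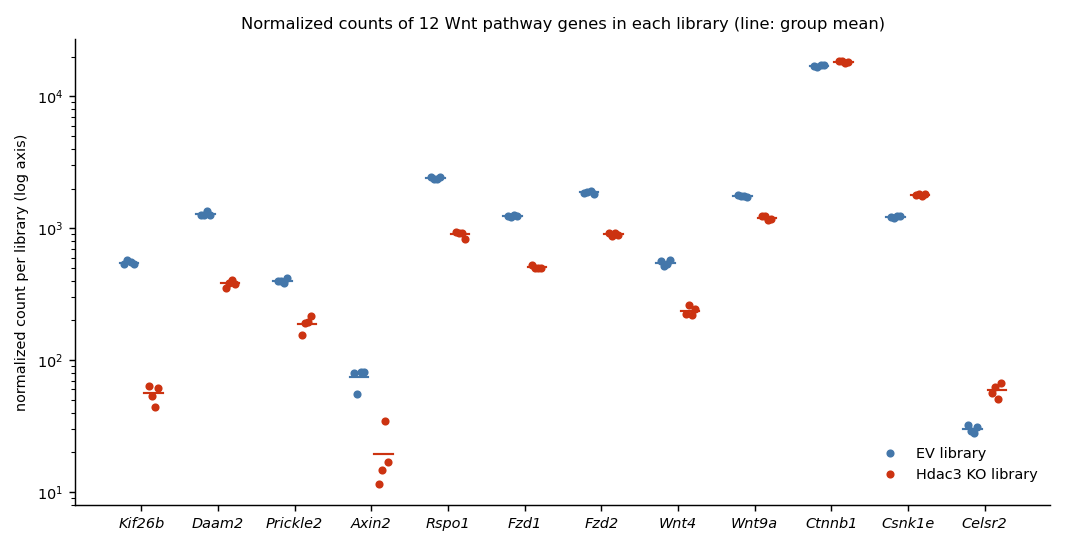
Normalized counts of 12 Wnt pathway genes in each of the 8 libraries on a log axis, with the group mean as a line and the 4 libraries of each group from left to right in replicate order. The EV and *Hdac3* KO points do not overlap for any of the 12 genes; *Kif26b* has the widest gap and *Axin2* the widest spread, with *Hdac3* KO replicate 3 at 34.8 against 11.6 to 16.9 in the other KO libraries.

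Of the 7 listed receptors, all 5 Frizzled genes and *Lrp5* fell and *Ryk* rose, and the median log2 fold change was -0.32. *Fzd1* (ENSMUSG00000044674, chromosome 5, 4753873 to 4758035) had 1238, 1216, 1256 and 1230.1 normalized counts in EV and 525, 504, 504 and 503 in *Hdac3* KO libraries, with very little spread in either group, and a log2 fold change of -1.28 (SE 0.04, adjusted p = 3.9e-24 in edgeR's quasi-likelihood test). *Fzd2* (ENSMUSG00000050288, chromosome 11, 102604396 to 102608058) had 1856, 1887, 1904 and 1834 in EV and 917, 877, 921 and 891 in KO libraries, with every KO value below every EV value. Its log2 fold change was -1.05 (SE 0.04). *Fzd8* (ENSMUSG00000036904) had 333, 345, 357 and 380.5 in EV and 227, 187, 193 and 163 in KO libraries, a change of -0.89 (SE 0.08). *Fzd7* and *Fzd6*, the other Frizzled receptors of the table, changed less. *Fzd7* (ENSMUSG00000041075, chromosome 1, 59482424 to 59486955), with 3750.1, 3707, 3743 and 3705 in EV and 3027, 3046, 2941 and 2948 in KO libraries, fell by 0.32 (SE 0.03) and *Fzd6* by 0.26 (SE 0.03) on the log2 scale.

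Among the 5 listed Frizzled genes, the makeup moved toward *Fzd7* and *Fzd6*. Their summed FPKM with *Fzd1*, *Fzd2* and *Fzd8* was 117 ± 0.8 in EV and 72.1 ± 1.1 in *Hdac3* KO MCECs (SD, n = 4). *Fzd7* held 37.4% to 37.6% of the sum in EV and 44.0% to 45.4% in KO libraries, and *Fzd6* 20.4% to 21.3% and 24.9% to 26.9%. *Fzd2* went from 23.3% ± 0.3 to 16.7% ± 0.4 and *Fzd1* from 13.5% ± 0.1 to 8.32% ± 0.16. The shares of *Fzd8* were 4.82% ± 0.28 and 3.91% ± 0.50, whose libraries overlapped. *Lrp5* (ENSMUSG00000024913, chromosome 19, 3584828 to 3686564), the co-receptor, had 3639, 3897, 3749 and 3740.1 normalized counts in EV and 3354, 3065, 3010.2 and 3033 in KO libraries and fell by 0.27 on the log2 scale (SE 0.03). *Ryk* (ENSMUSG00000032547, chromosome 9, 102834917 to 102908305), a receptor that binds Wnt without Frizzled, had 3757, 3672, 3589.7 and 3510.3 in EV and 4409.6, 4102, 4462 and 4459 in KO libraries. It rose by 0.26 (SE 0.03) and was the most abundant receptor of the table per length, at 62.9 ± 2.0 and 69.6 ± 2.7 FPKM. With library totals alone the rise of *Ryk* was 0.15.

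**Figure D3:**
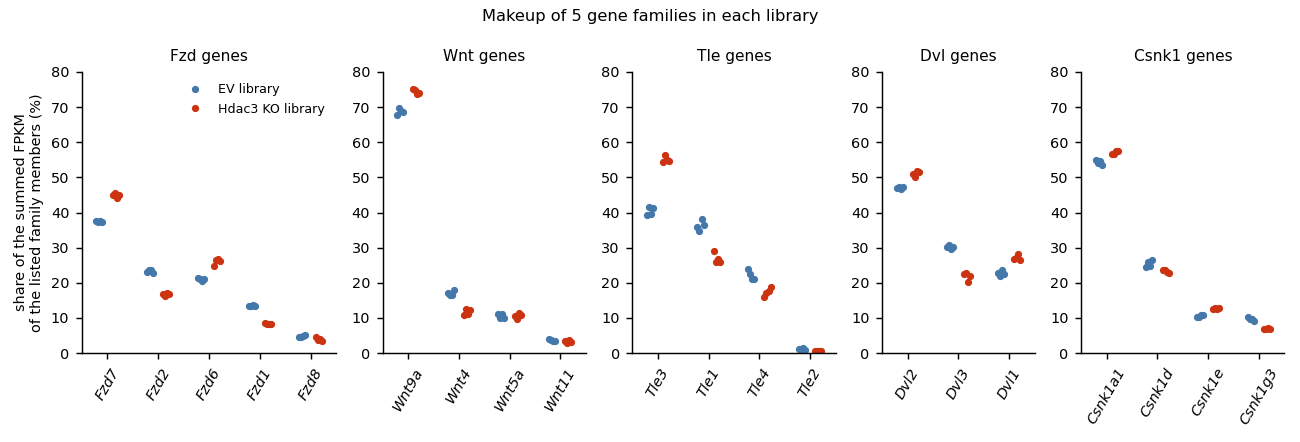
Share of each listed member in the summed FPKM of its family, in percent, for the Fzd, Wnt, Tle, Dvl and Csnk1 genes, with 1 point per library (blue, EV; red, *Hdac3* KO). The shares of *Fzd7*, *Wnt9a*, *Tle3* and *Dvl2* are higher in all 4 *Hdac3* KO libraries than in any EV library, and those of *Fzd2*, *Wnt4*, *Tle1* and *Dvl3* are lower.

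The secreted antagonists of the Sfrp family, which bind Wnt ligands outside the cell, fell as well. *Sfrp4* (ENSMUSG00000021319, chromosome 13, 19623175 to 19632821) had 549, 604, 570.4 and 587 normalized counts in EV and 347, 396, 455 and 441 in *Hdac3* KO libraries and a log2 fold change of -0.49 (SE 0.06). *Sfrp2* (ENSMUSG00000027996, chromosome 3, 83766321 to 83774316) was near the limit of detection, with 22, 16, 15 and 18 reads in EV and 7, 4, 7 and 2 in KO libraries. Its log2 fold change of -1.93 had the largest standard error of the 46 genes, 0.37. Per length *Sfrp4* stood at 17.5 ± 0.65 FPKM in EV and *Sfrp2* at 0.502 ± 0.13.

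The Dishevelled genes, whose products pass the signal from Frizzled receptors to both branches of the pathway, did not move as a group. *Dvl3* (ENSMUSG00000003233, chromosome 16, 20516982 to 20532520) had 915, 969.5, 932 and 956 normalized counts in EV and 708, 719, 620.5 and 651 in *Hdac3* KO libraries and fell by 0.49 (SE 0.05) on the log2 scale. *Dvl1* (ENSMUSG00000029071, chromosome 4, 155847402 to 155859303) had 1120.3, 1131, 1207 and 1151 in EV and 1369, 1398, 1396 and 1274 in KO libraries, all KO values above all EV values, and rose by 0.24 (SE 0.04). With library totals alone this rise was 0.12. *Dvl2*, the most abundant of the 3, had 2429, 2557, 2502 and 2560.5 in EV and 2753, 2731, 2714 and 2605 in KO libraries and rose by 0.10 (SE 0.03); with library totals alone and no TMM factors its log2 fold change was -0.014 and the rise was gone. The share of *Dvl3* in the summed FPKM of the family, which does not depend on the scaling, went from 30.3% ± 0.4 to 21.9% ± 1.1, and that of *Dvl1* from 22.7% ± 0.7 to 27.1% ± 0.7.

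The group of Axin, Apc, Gsk3 and Csnk1 genes split by member, with 3 lower, 4 higher and *Gsk3a* not called. It was formed by name, so not every Csnk1 gene in it belongs to the destruction complex. *Axin2* (ENSMUSG00000000142, chromosome 11, 108920349 to 108950783), a scaffold of the complex and a widely used readout of β-catenin signaling, had 79.5, 55.5, 81.5 and 81.6 normalized counts in EV and 11.6, 14.6, 34.8 and 16.9 in *Hdac3* KO libraries. EV replicate 2 was the lowest of its group and *Hdac3* KO replicate 3 the highest of its own, yet the groups stayed apart. The log2 fold change was -1.92 (SE 0.22, adjusted p = 1.0e-09 in edgeR's quasi-likelihood test), between -2.36 and -1.75 when single libraries were left out. The level was low in both groups, at 0.931 ± 0.16 and 0.224 ± 0.12 FPKM. *Axin1* (ENSMUSG00000024182, chromosome 17, 26138688 to 26195811), the related scaffold that is not a feedback gene, had 1964, 1896, 1955 and 1961 in EV and 2288, 2142, 2231 and 2255 in KO libraries and rose by 0.20 (SE 0.03), a call lost with library totals alone. It held most of the Axin transcripts per length, and the share of *Axin2* in the pair was 3.28% ± 0.50 in EV and 0.768% ± 0.408 in KO MCECs. *Apc2* (ENSMUSG00000020135, chromosome 10, 80295977 to 80318263), a relative of APC, had 508, 546, 470.1 and 576 in EV and 328, 313, 320.1 and 323 in KO libraries, with a log2 fold change of -0.72 (SE 0.06). 

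Among the casein kinase 1 genes, *Csnk1e* (ENSMUSG00000022433, chromosome 15, 79417856 to 79443919), which phosphorylates Dishevelled, rose most, with 1208, 1191, 1234 and 1235 normalized counts in EV and 1792, 1829, 1762 and 1810.4 in *Hdac3* KO libraries. Its log2 fold change was 0.56 (SE 0.03, adjusted p = 1.1e-16 in edgeR's quasi-likelihood test). *Csnk1a1* (ENSMUSG00000024576), the priming kinase of the destruction complex, had 8221, 8079, 7922 and 7822 in EV and 10315, 10276, 10452 and 10474 in KO libraries and rose by 0.37 (SE 0.03). It was the most abundant kinase of the group per length, at 104 ± 2.5 and 125 ± 1.0 FPKM. *Csnk1d* rose by 0.17 (SE 0.03), which was not called with library totals alone, and *Csnk1g3* fell by 0.19 (SE 0.04) on the log2 scale. The summed FPKM of the 4 listed Csnk1 genes was 192 ± 3.1 in EV and 218 ± 0.5 in KO MCECs. *Gsk3a*, the related kinase of the complex, had 859, 865, 931 and 906 normalized counts in EV and 1033, 1036, 900.1 and 912 in KO libraries, groups that overlap, with a log2 fold change of 0.12 and an adjusted p of 0.016 in edgeR's quasi-likelihood test.

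*Ctnnb1*, the gene of β-catenin, was the most abundant of the 46 genes per length and hardly moved. It had 16886, 16834, 17282 and 17168 normalized counts in EV and 18699, 18403, 18067 and 18366 in *Hdac3* KO libraries, a log2 fold change of 0.11 (SE 0.02). The sign of this small change depended on the scaling, since with library totals alone it was -0.0083, and the FPKM values were 250.3 ± 3.4 and 249 ± 3.7. *Ctnnbip1* (ENSMUSG00000028988, chromosome 4, 149518236 to 149566437), an inhibitor that keeps β-catenin from TCF proteins, had 622, 559, 630.0 and 599 in EV and 457, 470.2, 489 and 458 in KO libraries and fell by 0.36 (SE 0.05). The co-activator *Bcl9* fell by 0.24 (SE 0.05), and *Ctnnbl1*, which despite its name is a spliceosome-associated protein, rose by 0.16 (SE 0.04), not called with library totals alone.

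Among the TCF genes and the Tle genes of their co-repressors, 5 of 6 listed genes fell (49.6% of all listed genes), with a median log2 fold change of -0.53. Of the TCF genes, *Tcf7l1* (ENSMUSG00000055799, chromosome 6, 72626378 to 72789254), mostly a repressor, had 255, 272, 249.7 and 261 normalized counts in EV and 172, 195, 189 and 184 in *Hdac3* KO libraries and fell by 0.49 (SE 0.08). *Tcf7l2* (ENSMUSG00000024985, chromosome 19, 55741810 to 55933654), a main partner of β-catenin, had 681, 729, 681 and 654 in EV and 501, 556, 553 and 566 in KO libraries and fell by 0.33 (SE 0.05). The Tle genes, which encode Groucho co-repressors that bind TCF proteins, did not move alike. *Tle1* (ENSMUSG00000008305, chromosome 4, 72117142 to 72200919) had 835, 884, 937 and 872 in EV and 641, 545, 532 and 529 in KO libraries and *Tle4* (ENSMUSG00000024642, chromosome 19, 14448072 to 14598051) had 578, 599, 540.1 and 528 and 370.4, 372, 369 and 400.3. Their log2 fold changes were -0.66 (SE 0.05) and -0.57 (SE 0.06). *Tle2* (ENSMUSG00000034771, chromosome 10, 81574561 to 81590845) was near the limit of detection, with 22 to 32 reads in EV and 12 to 15 in KO libraries, and changed by -1.15 (SE 0.25). *Tle3* (ENSMUSG00000032280, chromosome 9, 61372366 to 61418497) had 1807, 2090.1, 1918 and 1949 in EV and 2377, 2330.0, 2168 and 2192 in KO libraries and rose by 0.22 (SE 0.04). With library totals alone this rise was 0.105. The share of *Tle3* in the summed FPKM of the 4 listed Tle genes went from 40.4% ± 1.2 to 55.0% ± 0.9, and that of *Tle1* from 36.3% ± 1.4 to 26.9% ± 1.4.

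The genes of planar cell polarity and of Wnt5a-Ror signaling held the largest single fall of the set, that of *Kif26b*, with 7 of 8 lower (49.6% of all listed genes) and a median log2 fold change of -0.81. *Kif26b* (ENSMUSG00000026494, chromosome 1, 178529125 to 178932855), a kinesin-family protein that is degraded in response to Wnt5a-Ror signals, had 538, 571, 552 and 534 normalized counts in EV and 64.2, 53.1, 44.3 and 61.9 in *Hdac3* KO libraries. All KO libraries lay far below the EV libraries, the widest gap of the set on the log2 scale. The log2 fold change was -3.30 (SE 0.09, adjusted p = 1.1e-26 in edgeR's quasi-likelihood test), and the level per length went from 4.01 ± 0.12 to 0.376 ± 0.06 FPKM. *Daam2* (ENSMUSG00000040260, chromosome 17, 49456022 to 49564337), a formin that links Dishevelled to actin, had 1263, 1254, 1353 and 1257 in EV and 354, 388, 406 and 378 in KO libraries, with a log2 fold change of -1.75 (SE 0.05).

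Both listed Prickle genes, whose products act in the core polarity complex, were lower. *Prickle2* (ENSMUSG00000030020, chromosome 6, 92370892 to 92706145) had 399, 398, 382 and 422 normalized counts in EV and 156, 190.3, 193 and 215 in *Hdac3* KO libraries, a change of -1.08 (SE 0.08). *Prickle1* (ENSMUSG00000036158, chromosome 15, 93499114 to 93595891) had 45.1, 43.3, 50.1 and 42.6 in EV and 12.6, 18.3, 13.2 and 9.38 in KO libraries, low counts that did not overlap, and changed by -1.74 (SE 0.22). The Vangl genes, which encode membrane proteins of the same complex, fell less. *Vangl1* (ENSMUSG00000027860, chromosome 3, 102156701 to 102204693) had 875, 845, 893 and 817 in EV and 692, 709.9, 666 and 657 in KO libraries and fell by 0.33 (SE 0.05), and *Vangl2* (ENSMUSG00000026556, chromosome 1, 172000960 to 172028444) had 299, 319, 321 and 273 and 219.9, 229, 251 and 248 and fell by 0.35 (SE 0.08). The atypical cadherins of the Celsr family moved apart. *Celsr1* (ENSMUSG00000016028, chromosome 15, 85898758 to 86033777) had 1030.1, 1216, 1062 and 1142 in EV and 848, 779, 699.6 and 731 in KO libraries and fell by 0.55 (SE 0.05). *Celsr2* (ENSMUSG00000068740, chromosome 3, 108390851 to 108415552) had 32.0, 28.9, 28.2 and 31 in EV and 56.8, 62.2, 50.8 and 67.5 in KO libraries and rose by 0.98 (SE 0.17), the largest rise of the 46 genes. *Celsr2* made up 2.75% ± 0.30 of the summed FPKM of the pair in EV and 7.51% ± 0.97 in KO MCECs, so *Celsr1* remained by far the more abundant.

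The direction of the change went with the level of the gene. Among the 15 genes with the lowest mean FPKM, 13 were lower in KO, with a median log2 fold change of -0.82. In the middle 16 it was 14, with a median of -0.49, and in the highest 15 it was 6, with a median of 0.11. Over the same 3 ranges of FPKM, 67.3%, 54.5% and 33.1% of all listed genes were lower, with medians of -0.51, -0.19 and 0.18. The Wnt genes thus lay below the medians of all listed genes in each range, by the least in the highest one. In the highest range *Rspo1* fell furthest, by 1.42.

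**Figure D4:**
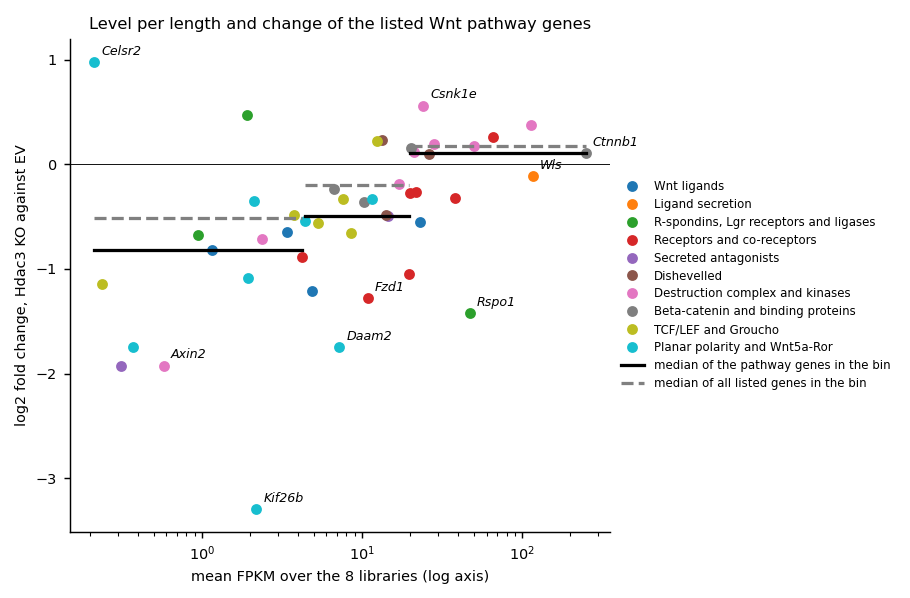
Log2 fold change of *Hdac3* KO against EV MCECs against the mean FPKM over 8 libraries (log axis) for the 46 genes, coloured by role. Black lines give the median of the Wnt genes in 3 ranges of FPKM (-0.82, -0.49 and 0.11). Dashed grey lines give the median of all listed genes cut at the same limits (-0.51, -0.19 and 0.18), where the outer ranges also hold genes beyond the drawn ends.

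Annotated exons of other genes lie on the opposite strand within some of these genes, and no source says whether reads were counted by strand. They cover 28.3% of the exonic bases of *Gsk3a*, 25.8% of *Ctnnbip1*, 18.3% of *Dvl2*, 16.1% of *Sfrp2*, 14.6% of *Ctnnb1*, 13.1% of *Rspo3*, 8.80% of *Wnt11* and 6.19% of *Kif26b*. Reads from those other genes could enter the counts of these 8 genes, and how many did was not measured. Without all genes above 5%, the median log2 fold change of the rest was -0.42.

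Other genes of the pathway were read from lists that the name rule did not cover. Of 28 secreted and membrane modulators, 11 were in the table, 7 lower, 3 higher and 1 not called, with a median log2 fold change of -0.34. *Gpc3*, a heparan sulfate proteoglycan of the cell surface that binds Wnt and Frizzled, changed by -1.72 (SE 0.03) and its relative *Gpc6* by -0.75 (SE 0.11). *Vps35*, a retromer subunit that recycles Wls, changed by 0.32 (SE 0.03) and *Igfbp4*, a secreted protein reported to bind Wnt receptors, by 0.23 (SE 0.05), a call lost with library totals alone. Of 31 cytoplasmic and nuclear effectors, 17 were listed, 2 lower and 15 higher, with a median of 0.30. The highest were *Cdk8*, a kinase of the Mediator complex, at 0.96 (SE 0.03), and *Tbl1xr1*, a subunit of the NCoR complex that also binds β-catenin, at 0.89 (SE 0.04). *Amer1*, a membrane scaffold of the destruction complex, was the lowest at -0.85 (SE 0.06), and the other lower gene was *Ppp2r1a*, a phosphatase subunit, at -0.082 (SE 0.03). The medians of these lists lay on opposite sides of 0, beside an all-gene median of 0.06 with 49.6% lower and 47.1% higher.

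Of 25 further genes of planar polarity and Wnt calcium signaling, 17 were listed, 11 lower and 6 higher, with a median of -0.25, beside 49.6% lower, 47.1% higher and a median of 0.06 over all listed genes. Among those that averaged 100 or more normalized counts in either group, *Plcb4*, a phospholipase, changed by -1.30 (SE 0.08) and *Wdpcp*, a planar polarity and cilium effector, by -0.88 (SE 0.14). *Rock2*, a kinase downstream of RhoA, changed by 0.50 (SE 0.03) and the polarity scaffold *Scrib* by 0.28 (SE 0.03).

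Of 34 genes known as targets of β-catenin, none of them among the 46, 19 were listed, 10 lower and 9 higher, with a median log2 fold change of -0.16. *Apcdd1* is counted here and among the modulators. Beside this, 49.6% of all listed genes were lower and 47.1% higher. Among the targets that averaged 100 or more normalized counts in either group, the lowest were *Ephb2*, a receptor of ephrins, at -1.18 (SE 0.07), and the growth factor *Bmp4* at -0.91 (SE 0.05). The highest of these were *Fosl1*, a subunit of AP-1, at 2.24 (SE 0.08) and *Vegfa*, the vascular growth factor, at 1.19 (SE 0.03). *Ccnd1* and *Myc*, named here after their values were seen, rose by 0.996 (SE 0.05) and 0.98 (SE 0.04), while *Axin2* fell by 1.92. These shares of lower and higher targets are close to those of all listed genes, but the targets moved further. Their median absolute log2 fold change was 0.77, against 0.40 over all listed genes. Of 14 genes known to depend on β-catenin in the endothelium of brain and retina, 4 were listed, all higher, among them the transporters *Slc7a5* at 1.05 (SE 0.03) and *Mfsd2a* at 0.80 (SE 0.15), and 1 of the 4, *Abcb1a*, also stands in the target list. *Abcb1a* rests on 3 to 7 reads in each EV library, and *Pdgfb*, at 0.12, had 22.3 ± 0.6 FPKM in EV and 22.2 ± 1.3 in KO MCECs, values that carry no TMM factor.

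**Figure D5:**
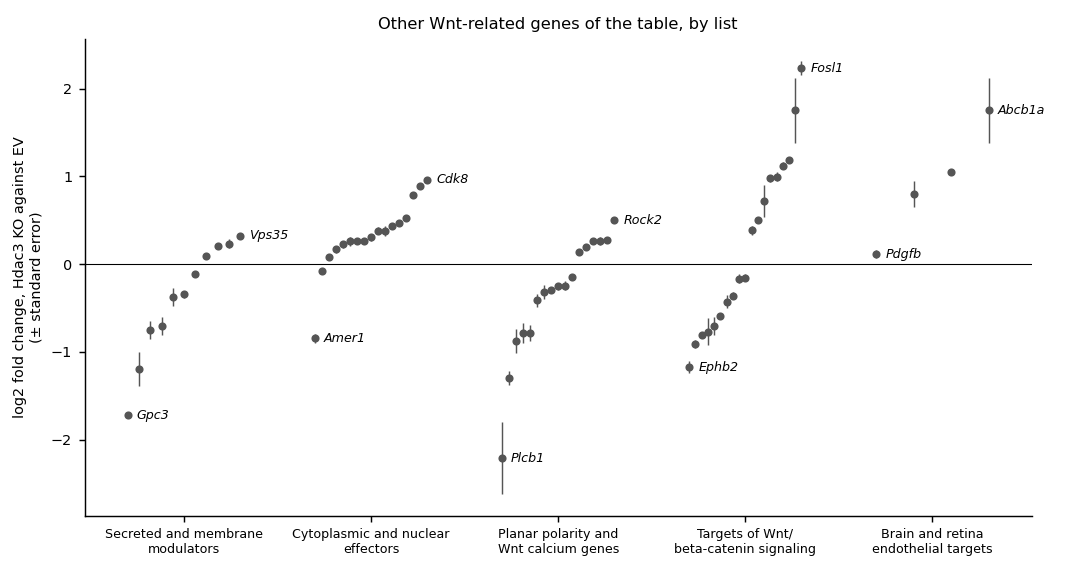
Log2 fold change (± standard error) of *Hdac3* KO against EV MCECs for the listed genes of 5 further Wnt-related lists, in rising order within each list, with the lowest and highest gene named. The effectors lie mostly above 0 (15 of 17) and the targets on both sides (10 lower, 9 higher).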

How the data were processed

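Bulk RNA-Seq of 4 *Hdac3* KO and 4 EV MCEC libraries was analysed. The groups come from the sample titles. Reads were aligned by the authors to mm10 with tophat2 and bowtie2; the submitters' processing notes also name CASAVA and DESeq 1.6.3, and the study's methods name both DESeq2 and the cufflinks suite for differential expression. The study's statistics section also names the R package lumi for normalization and for extraction of the count matrix. Which program assigned reads to genes is not given in the sources used here. The authors deposited raw counts per gene, without normalization, and FPKM values made from count, gene length and library total. Their own columns of fold changes, p-values and group means were not used, and 0 columns of per-sample values were left unmatched. The authors deposited only genes with an adjusted p-value under 0.05. 

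Library totals were recovered from count, length and FPKM and multiplied by TMM factors (edgeR 4.0.16, limma 3.58.1, R 4.3.3). The table held 84.3% to 85.9% of the reads of each library. All 8278 genes were fitted with edgeR's quasi-likelihood test without a filter, with Benjamini-Hochberg adjustment over the table and the study's threshold of 0.01. Libraries of a group varied by 2.82% beyond counting noise (edgeR's common estimate), and changes down to 0.07 on the log2 scale passed. Intervals from read numbers would cover counting error only, since reads carry no molecular identifiers. Normalized counts are counts divided by relative library size. Standard errors (SE) were derived as the absolute log2 fold change divided by the square root of the F statistic of edgeR's quasi-likelihood test. Every pair of replicates differed by more than sampling noise (chi-square per degree of freedom 1.80 to 3.67), so each was kept as 1 sample. Genes named are all members past the threshold with an absolute log2 fold change of at least 0.5, the most abundant and most changed member of each role and, from each other list, up to 2 genes per direction (mean of 100 or more normalized counts in the higher group); the remaining members are given as well. The members, roles and lists were chosen with earlier results of these data known. Exon overlaps come from GENCODE M21 and promoter windows from RefSeq (GRCm38.p6). Alternatives were DESeq2 1.42.0, other scalings, a filter of 10 counts in 4 libraries, protein-coding rows only, other thresholds, a replicate block and leaving out each library. Leaving out *Kif26b* and leaving out genes that share exonic bases were chosen after seeing the data. The tests were tried on simulated data. Python 3.11.15 and matplotlib 3.10.9 drew the figures. The single-cell and miRNA data of the study were not analysed here.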

Additional observations from a re-analysis of the deposited data

Results flagged for a closer look

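Among the 94 groups of 4 libraries (46 Wnt pathway genes and *Hdac3*, each in EV and *Hdac3* KO MCECs), 8 held 1 library whose gap to its nearest neighbour took up more of the range of the group than Dixon's 95% limit. Chance alone gives such a gap in about 1 of 20 groups, which is 4.7 of 94. In *Hdac3* KO replicate 1, *Fzd1* stood at 525 normalized counts against 503 to 504 (gap over range 0.972), *Lrp5* at 3354 against 3010.2 to 3065 (0.842) and *Tle1* at 641 against 529 to 545 (0.853). *Ryk* was lower in *Hdac3* KO replicate 2, at 4102 against 4409.6 to 4462 (0.854), and *Tle4* was higher in *Hdac3* KO replicate 4, at 400.3 against 369 to 372 (0.896). In EV replicate 2, *Axin1* stood at 1896 against 1955 to 1964 (0.863) and *Axin2* at 55.5 against 79.5 to 81.6 (0.92). *Daam2* was higher in EV replicate 3, at 1353 against 1254 to 1263 (0.91). In none of these 8 cases did the library reach the values of the other group, and each of these genes passed the threshold without it.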

How the results depend on the processing

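Under DESeq2's Wald test, a count filter, protein-coding rows only and TMM on the sums of the table, the calls of all 46 Wnt genes remained as in the report. With library totals alone the median of all genes moved by -0.12. The count of higher Wnt genes was then 7, and the medians were -0.54 (all Wnt genes), -0.85 (ligands), -0.43 (receptors), -0.014 (Dishevelled, reversed), 0.031 (Axin, Apc, Gsk3 and Csnk1 genes), -0.18 (β-catenin and its partners), -0.64 (TCF and Tle) and -0.93 (polarity). *Ctnnb1* (-0.0083) and *Dvl2* (-0.014) then changed sign, and *Axin1*, *Csnk1d*, *Ctnnbl1* and *Igfbp4* were no longer called. Small changes that stayed called also moved, with *Vps35* at 0.20, *Scrib* at 0.16, *Csnk1g3* at -0.30 and *Ppp2r1a* at -0.20. With a fold threshold of 0.5, 20 Wnt genes were lower and 2 higher. Without *Kif26b* the median was -0.36. Leaving out single libraries gave 33 lower in every case, 11 to 13 higher, and a median of -0.44 to -0.38. *Dvl2* was not called without EV replicate 1 (0.09). *Gsk3a* was called without *Hdac3* KO replicate 3 (0.16) or 4 (0.16) and with DESeq2's size factors in edgeR (0.13), and *Ppp2r1a* was not called with those factors or without *Hdac3* KO replicate 2 or 3. Deviations of libraries with the same replicate number correlated between -0.107 and 0.118 (mean -0.02), so the numbers do not pair the samples; with the replicate block 33 Wnt genes were lower and 12 higher, with a median of -0.42, and no call of a Wnt gene changed. Over all listed genes, 3988 were lower and 3790 higher with DESeq2, 4120 and 2671 with library totals and 4106 and 3866 with the block, against 4107 and 3895. Depth limits *Sfrp2*, *Tle2*, *Prickle1*, *Celsr2*, *Rspo3* and *Axin2*, with under 100 reads in every library. The causes of these shifts were not tested, beyond the scaling itself.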
